A study of Mus musculus with 7 samples.

Results

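Feedback inhibitors of the RAS to ERK kinase pathway were followed through 10 mouse genes: the dual specificity phosphatases Dusp2, Dusp4, Dusp5, Dusp6 and Dusp10, the Sprouty genes Spry1, Spry2 and Spry4, and the Sprouty-related genes Spred1 and Spred2. Members were all probes that the array files list under one of these 10 gene names, which gave 15 of 41174 probes, for 9 of the 10 genes. Dusp5 had 0 probes of that name and was not analysed here. The 2 Spry4 probes did not pass the filter on dim signals, so 13 probes of 8 genes were tested.

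RNA was measured in 3 populations of thymocytes that were sorted by flow cytometry from BALB/c mice, all of them Rag2-/-. Lig+ and Lig- are DN4 cells of mice with the KN6 Tg, a γδ T cell receptor transgene, and the control is DN3 cells of non-Tg mice. Each of the 7 arrays set a DN4 sample (4 Lig+ and 3 Lig-) against DN3 RNA in the other colour, on 4 slides scanned on 2 days. Sources of the later day name Lig+ or Lig- without DN4. Rag2-/- cells cannot rearrange their own receptor genes, so the DN3 cells lack a receptor that the DN4 cells have, and stage and transgene cannot be told apart in any ratio to DN3. The submitters describe the arrays within a group as biological replicates and count 1 dye swap per group. Age, how the Lig- cells lack the ligand, the number of mice behind a sample and whether the DN3 RNA was 1 pool are not given in the sources used here.

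A T cell receptor that binds its ligand activates RAS, which switches on the kinases RAF, MEK and ERK in turn. ERK then induces early genes such as Egr1 and also the genes of its own inhibitors. Dual specificity phosphatases remove phosphates from the kinases themselves, whereas Sprouty and Spred proteins act upstream, on the step from receptors to RAS and RAF. In developing thymocytes the strength of this signal is known to bear on the choice between the γδ and the αβ lineage, and KN6 is known to recognise class I-like proteins of the H2-T family.

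The 2 genes for which Lig+ and Lig- cells differed past the test, Dusp2 and Spred1, and Spry2, whose probes disagreed, are shown here by the first 30 bases of 60-base probes, as the array design lists them. Capitals are not used in these probe sequences.
Dusp2 A_52_P399934: gtgggcatctcgctgtaattggtgctgaaa
Spred1 A_52_P637689: acagttgttaccagtgaaccttacagaagc
Spred1 A_51_P119857: ctggctgagagttgtgagtatatcatgtaa
Spry2 A_51_P445153: ccccccttttaacacatatgcaaccaacta
Spry2 A_52_P368532: caggaaacctttattgtaagtctctgattt
The design places the Dusp2 probe at chr2:127079047-127079106. It places the Spred1 probes on the same chromosome, at chr2:116912833-116912892 and chr2:116922962-116923021 in the order printed, on the plus strand. The Spry2 probes lie on the minus strand, at chr14:100322370-100322429 and chr14:100321854-100321913. The genome build of these positions, and the exon or untranslated region that a probe lies in, are not given in the sources used here. The second Spred1 probe starts 10129 bases downstream of the first in the genome, and the second Spry2 probe 516 bases downstream of the other.

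The region before the Dusp2 start is shown because Dusp2 was the member that was higher in Lig+ than in Lig- cells, and because its window was the only member promoter with an EGR site. It covers chr2:127335909-127336158 on the plus strand of GRCm38.p6 (RefSeq), the 250 bases before the gene start, and capitals mark the match.
Dusp2 promoter: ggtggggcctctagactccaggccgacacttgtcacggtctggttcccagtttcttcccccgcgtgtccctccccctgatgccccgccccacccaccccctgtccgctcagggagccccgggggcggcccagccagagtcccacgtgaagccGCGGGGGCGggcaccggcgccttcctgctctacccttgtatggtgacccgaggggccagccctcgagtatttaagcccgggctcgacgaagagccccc
Promoter windows of 300 bases were at hand for 8 members, all but Dusp4 and Spry4, and both strands were searched. The EGR site (GCGTGGGCG or GCGGGGGCG) was found in 1 of 8, at -98 to -90 in Dusp2, and in 3.47% of all 32851 windows of that length. CArG boxes, the core of the serum response element, were found in 1 of 8, in Dusp5 (2 matches, starting at -82 and -72), and in 1.63% of all windows. The ETS site (CCGGAAGT or CAGGAAGT), the AP-1 site (TGANTCA) and the cyclic AMP response element (TGACGTCA) were found in 0 of 8, against 7.07%, 7.81% and 1.79% of all windows. A match describes the letters only.

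The signal checks concern all arrays. Median net signals were 195 to 540 for DN4 and 398 to 517 for DN3 RNA, 0 spots were saturated, and the number of arrays limits the precision. By the fit, all 4 DN3 markers (Il2ra, Ptcra, Rag1 and Dntt) fell in Lig+ and in Lig- cells. Dntt passed narrowly in Lig- cells (-1.52 ± 0.46, adjusted p = 0.0467), with a ratio of -0.057 on Lig- replicate 1. In every DN4 sample 4 of 4 T lineage markers were above background. Their summed signal was 158000 to 290000 in 5 DN4 samples and 529000 and 572000 in the replicate 1 samples, whose dyes were swapped, against 463000 to 682000 in the DN3 samples. By the fit, Cd3e, Cd3g and Lck fell in Lig+ cells, and in Lig- cells Cd3e and Cd3g fell while Thy1 rose. The summed signal of 6 myeloid markers was 6440 to 22700 in DN4 samples and 67500 to 92700 in DN3 samples, where most of it came from Lyz2. Itgam rose in Lig+ cells (1.71 ± 0.23, adjusted p = 0.00154) and differed from Lig- cells by 1.61 (adjusted p = 0.0273). Thymic epithelial markers (4) summed to 2190 to 8680 in DN4 and 22600 to 39300 in DN3 samples, and in the DN3 samples most of it came from Epcam. In Lig+ cells Epcam was the 1 marker of these that fell, and in Lig- cells Epcam, Krt5 and Krt8 fell. The summed signal of 5 B cell markers was 20800 to 30000 in DN4 and 34000 to 46800 in DN3 samples. Most of it came from Cd79b, the 1 marker of these that fell, while Cd79a rose in Lig- cells (0.71 ± 0.20, adjusted p = 0.0401). The Cd79a ratios were 0.99 and 1.05 on Lig- replicates 1 and 2 (scan day 1) and 3.9e-05 on Lig- replicate 3 (scan day 2). The summed signal of 5 stromal and endothelial markers ran the other way, at 22900 to 25400 in Lig+, 35600 to 42300 in Lig- and 15400 to 17700 in DN3 samples. Most of it came from Pecam1 and Pdgfrb. By the fit, 2 of these markers rose in Lig+ and 3 in Lig- cells. Cdh5, above background in only 2 DN4 samples, fell in both (-0.32, adjusted p = 0.0408, and -0.55, adjusted p = 0.00889). Erythroid markers (4) changed with scan day in the DN3 samples, from 28700 to 32900 on day 1 to 299000 to 313000 on day 2, and stood at 28900 to 48800 and 60200 to 113000 in the DN4 samples. At least 3 markers of each list were above background in every DN4 sample, and the part of these cells in the results was not tested. In bulk RNA, fewer cells of a type and less RNA per cell cannot be told apart.

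In Lig+ cells 7 of 8 tested members passed the threshold of 0.05, counted by their brightest probe, and 5 rose while 2 fell, beside 36.6% of all 34906 probes tested (17.7% higher and 18.9% lower) and 35.9% of the brightest probes of all genes. In Lig- cells 8 of 8 passed, with 6 higher and 2 lower, beside 31.7% of all probes (16.3% and 15.5%) and 30.8% of brightest probes. The median change of the 8 members was 1.69 in Lig+ and 1.36 in Lig- cells on the log2 scale, and that of all probes -0.00061 and -0.0031. Both comparisons use DN3 RNA as their control, which was counted as 1 control sample. How far the ratios carry a spread between DN3 samples is not known, since it is not given whether they came from 1 pool. All changes are fitted log2 ratios ± SE from limma, with n = 4 Lig+ and n = 3 Lig- arrays, a dye term and Benjamini-Hochberg adjustment over all 34906 probes.

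**Figure D1:**
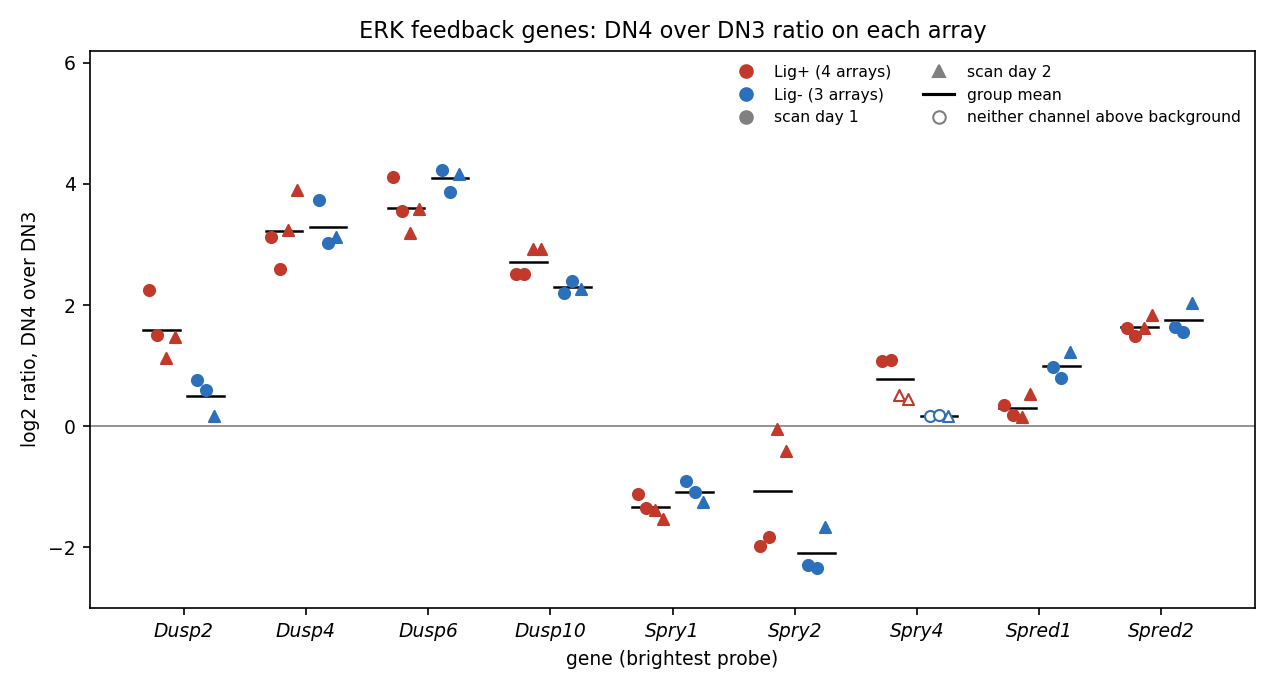
Log2 ratio of DN4 over DN3 for the brightest probe of each gene on every array (red Lig+, blue Lig-, circles scan day 1, triangles scan day 2, bars group means, hollow symbols where neither channel was above background). Dusp4, Dusp6 and Dusp10 lie above 2 on all 7 arrays, Spry1 and Spry2 below 0 on all 7, and the Spry2 arrays of Lig+ cells split by scan day.

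Dusp6, the cytoplasmic phosphatase that is selective for ERK and is itself an ERK-induced gene, showed the largest change of the set. Its log2 ratios were 4.11, 3.55, 3.20 and 3.58 on Lig+ replicates 1 to 4 and 4.24, 3.87 and 4.17 on Lig- replicates 1 to 3. All 7 arrays were high, and the groups overlapped. The rise was 3.72 ± 0.11 in Lig+ (13.2-fold, adjusted p = 8.36e-06) and 4.17 ± 0.12 in Lig- cells (18-fold, adjusted p = 1.42e-05). The normalised log2 signal was 14.8 ± 0.63 (SD, n = 4) in Lig+, 15.4 ± 0.17 (SD, n = 3) in Lig- and 11.2 ± 0.50 (SD, n = 4) and 11.3 ± 0.36 (SD, n = 3) in the DN3 samples beside them. The order was thus Lig-, Lig+ and DN3, and the difference between the first 2 was -0.44 ± 0.16 (Lig+ minus Lig-, 95% interval -0.82 to -0.066) with an adjusted p = 0.136, short of the threshold.

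The genes most like Dusp6 were sought over the 7 arrays by the root mean square difference of the log2 ratio, among 17879 named genes. Fam102a was nearest at 0.17, and its ratios ran from 3.34 to 4.03. Itgae, the αE integrin chain that binds E-cadherin, followed at 0.342 (3.12 to 4.67). Kcnmb4, a subunit of a calcium-activated potassium channel, stood at 0.403, Actn2, an actinin, at 0.435 and Oplah, an enzyme of glutathione metabolism, at 0.487. The measure only ranks likeness of values.

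Dusp4, a nuclear phosphatase of ERK and other MAP kinases, rose in both populations. The brightest probe, A_51_P347333, gave 3.13, 2.59, 3.25 and 3.91 on the Lig+ arrays and 3.74, 3.03 and 3.12 on the Lig- arrays. The Lig- arrays lay within the range of the Lig+ arrays. The change was 3.28 ± 0.23 in Lig+ (9.72-fold, adjusted p = 1.14e-04) and 3.34 ± 0.25 in Lig- cells (10.1-fold, adjusted p = 2.16e-04). The other probe, A_51_P518051, which the design places 2761 bases upstream, gave 2.73 ± 0.23 and 2.60 ± 0.25, and both passed (adjusted p = 2.38e-04 and 5.89e-04). Between Lig+ and Lig- the brightest probe differed by -0.056 ± 0.33 (95% interval -0.85 to 0.73, adjusted p = 0.944). On scan day 1 alone this difference was -0.53 (adjusted p = 0.00491), in a fit that called 44% of all probes. On scan day 2 alone, with 1 Lig- array, it was 0.46.

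Dusp10, a phosphatase that prefers the stress kinases p38 and JNK to ERK, also rose in both. Its ratios were 2.51, 2.51, 2.93 and 2.92 on the Lig+ arrays and 2.21, 2.40 and 2.27 on the Lig- arrays. The lowest Lig+ array lay above the highest Lig- array, as for 10.6% of 34780 probes with a value on every array. The change was 2.67 ± 0.094 in Lig+ (6.34-fold, adjusted p = 1.16e-05) and 2.26 ± 0.10 in Lig- cells (4.78-fold, adjusted p = 3.72e-05). The difference of 0.41 ± 0.13 (95% interval 0.090 to 0.73) had an adjusted p = 0.112. It was 0.21 on scan day 1 alone (adjusted p = 0.0658) and 0.66 on scan day 2 alone, with 1 Lig- array.

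Dusp2, a nuclear ERK phosphatase that is induced in activated lymphocytes, was higher in Lig+ than in Lig- cells. Its log2 ratios were 2.26, 1.502, 1.13 and 1.47 on Lig+ replicates 1 to 4 and 0.76, 0.59 and 0.16 on Lig- replicates 1 to 3. Every Lig+ array was above every Lig- array, as for 10.6% of 34780 probes with a value on every array. The change was 1.75 ± 0.12 in Lig+ (3.37-fold, adjusted p = 1.15e-04) and 0.61 ± 0.14 in Lig- cells (1.53-fold, adjusted p = 0.0157). The normalised log2 signal was 17.0 ± 0.23 (SD, n = 4) in Lig+, 16.1 ± 0.23 (SD, n = 3) in Lig- and 15.4 ± 0.49 and 15.6 ± 0.18 in the DN3 samples of the Lig+ and the Lig- arrays. The order was therefore Lig+, Lig- and DN3.

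In Lig- cells the rise of Dusp2 over DN3 depended on the setting. It did not pass without a dye term (0.51, adjusted p = 0.111), with the Lig- arrays alone (0.57, 0.0629), with scan day as a random block (0.56, 0.0525), without Lig- replicate 1 (0.82, 0.0615) or without Lig- replicate 2 (0.46, 0.0582). On scan day 2 alone, with 1 Lig- array, it was 0.16 (adjusted p = 0.514).

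Between the DN4 populations, 2 of 8 members passed the test of the difference, beside 10.9% of all 34906 probes (4.57% higher and 6.35% lower in Lig+) and 11.2% of brightest probes. Dusp2 was higher in Lig+ cells by 1.14 ± 0.18 (2.2-fold, adjusted p = 0.012), and Spred1 was lower by its brightest probe. The summed signal of DN3 markers was 106000 in Lig+ and 222000 in Lig- replicate 1, and 5190 to 13500 and 34500 to 37800 in the other samples. It was lower in Lig+ than in Lig- samples within slides 1, 2 and 3. Its part in these differences, like that of the stromal markers above, was not tested. Among the DN3 markers the difference between the groups was called for Dntt alone (-3.48 ± 0.59, adjusted p = 0.0165). It was 0.16 for Il2ra, -0.52 for Ptcra and -0.72 for Rag1. The Dusp2 difference was 1.49, 0.91 and 0.96 within slides 1, 2 and 3, each of which held 1 array of either group. It was 1.201 on scan day 1 alone (adjusted p = 0.00478), in a fit that called 44% of all probes. On scan day 2 alone, with 1 Lig- array, it was 1.14. With slide as a fixed block it was 1.12 (adjusted p = 0.0121), a fit that called 20.5% of all probes (9.02% higher and 11.5% lower). The call was lost without Lig+ replicate 1 or without Lig- replicate 1, which give the same fit of this difference (0.99, adjusted p = 0.0752), and without Lig- replicate 3 (1.06, adjusted p = 0.0517).

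**Figure D2:**
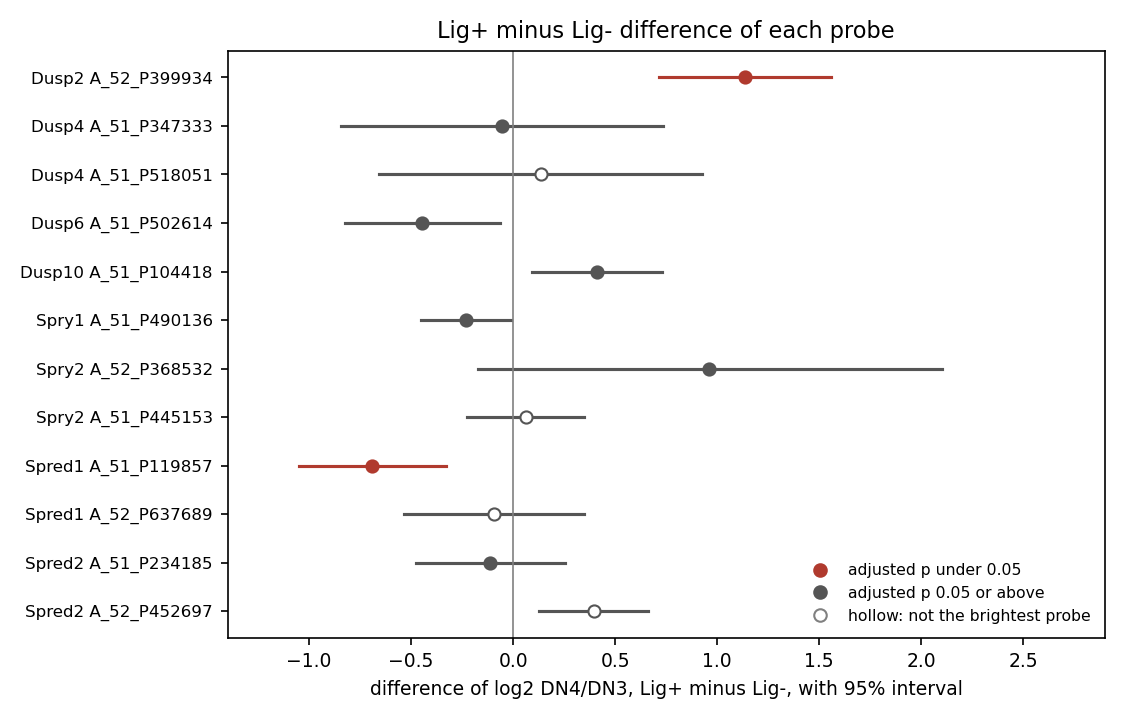
Difference of the log2 ratio between Lig+ and Lig- arrays (x axis, Lig+ minus Lig-) with its 95% interval for each tested probe shown (filled symbols brightest probe of a gene, red past the threshold). Dusp2 at 1.14 and the brightest Spred1 probe at -0.69 pass, and the other Spred1 probe lies near 0.

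The genes nearest to Dusp2 over the 7 arrays were Slc17a9, a transporter that loads vesicles with ATP (root mean square difference 0.148, ratios from 0.122 to 1.99), and Ppp3cc, a catalytic subunit of calcineurin (0.271). Rras, a RAS-related GTPase, stood at 0.287, Hectd2, a ubiquitin ligase, at 0.292 and Mapkapk3, a kinase downstream of p38, at 0.301. Rras is also a member of the cascade list below.

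Spry1 was lower in DN4 than in DN3 cells, and Spry2 was lower by 1 of its 2 probes, in Lig+ cells mainly on scan day 1. Spry1, which inhibits RAS to ERK signalling below receptors, gave -1.11, -1.35, -1.38 and -1.53 on the Lig+ arrays and -0.91, -1.09 and -1.26 on the Lig- arrays. All 7 arrays were below 0, and the groups overlapped. The log2 change was -1.27 ± 0.065 in Lig+ (2.41-fold lower, adjusted p = 3.42e-05) and -1.04 ± 0.071 in Lig- cells (2.06-fold lower, adjusted p = 1.47e-04). Both changes passed in each of 23 other settings, with Lig+ values from -1.45 to -1.23 and Lig- values from -1.26 to -1.002. The difference between the groups was -0.23 ± 0.092 (95% interval -0.45 to -0.0099, adjusted p = 0.179).

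Spry2, a related inhibitor that several growth factor receptors induce, fell by its brightest probe, A_52_P368532. Its ratios were -1.98 and -1.84 on Lig+ replicates 1 and 2 (scan day 1) but -0.045 and -0.41 on Lig+ replicates 3 and 4 (scan day 2). On the Lig- arrays they were -2.29, -2.34 and -1.66. The Lig+ arrays thus fell into a low and a near-zero pair by scan day, while the Lig- arrays stayed low. In the Lig+ samples the normalised log2 signal was 9.11 and 9.18 on day 1 and 10.2 and 10.03 on day 2, and in the DN3 samples beside them it was 11.1, 11.01, 10.3 and 10.4. The change was -1.26 ± 0.33 in Lig+ (adjusted p = 0.0261) and -2.22 ± 0.36 in Lig- cells (4.67-fold lower, adjusted p = 0.00489).

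The Lig+ call for Spry2 rested on scan day 1, where the change was -1.91 (adjusted p = 2.66e-05), against -0.23 (adjusted p = 0.161) on scan day 2. It was also lost without Lig+ replicate 1 (-0.91, 0.336), without Lig- replicate 3 (-1.24, 0.0513), with the Lig+ arrays alone (-1.37, 0.0684) and with scan day as a random block (-1.14, 0.0501). The erythroid signal of the DN3 samples moved with the same scan days, and its part was not tested. In Lig- cells Spry2 passed in each of 23 other settings (-2.61 to -1.66). The groups differed by 0.96 ± 0.47 (95% interval -0.17 to 2.1, adjusted p = 0.267). On day 1 alone they differed by 0.40 (adjusted p = 0.0111), in a fit that called 44% of all probes. On day 2 alone, with 1 Lig- array, they differed by 1.43.

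The other Spry2 probe, A_51_P445153, showed none of this. It gave 0.095, -0.33, 0.011 and 0.019 on the Lig+ arrays and -0.044, -0.20 and -0.053 on the Lig- arrays, all above background in both channels. Its change was -0.016 ± 0.084 in Lig+ (95% interval -0.22 to 0.19, adjusted p = 0.911) and -0.076 ± 0.092 in Lig- cells (-0.30 to 0.15, adjusted p = 0.598). The probes of this gene therefore disagree, and the fall of Spry2 holds for the downstream probe alone.

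Spry4, another Sprouty, was dim. Its probes were well above background in the DN4 channel of 2 of 4 Lig+ arrays (replicates 1 and 2), of 0 of 3 Lig- arrays and in 0 of 7 DN3 samples. Probe A_52_P204311 gave ratios of 1.07, 1.09, 0.52 and 0.46 on the Lig+ arrays and 0.16, 0.19 and 0.16 on the Lig- arrays. The Lig+ arrays lay above the Lig- arrays, as for 10.6% of the probes that passed the filter, and the first 2 of them were the measured ones. Set against the background level and taken over the arrays of a group, Lig+ cells were 1.7-fold above DN3 and 1.5-fold above Lig- cells. These are not lower limits for each array, since replicates 3 and 4 were not above background and gave smaller ratios. The fold values use, per array, the higher of the dim probe's own signal and the lowest signal well above background, after normalisation of the channels, and are open to dye bias. Without the filter on dim probes, Lig+ over DN3 passed (0.84 ± 0.13, adjusted p = 0.00307). Lig+ minus Lig- did not (0.63 ± 0.18, adjusted p = 0.0875). Probe A_51_P250422 gave 0.79, 0.78, 0.20 and 0.048 on the Lig+ arrays, -0.14 to 0.077 on the Lig- arrays, and group values of 1.36-fold and 1.29-fold. Without the filter it passed for Lig+ over DN3 (0.53 ± 0.14, adjusted p = 0.0298) and not for Lig+ minus Lig- (0.48 ± 0.20, adjusted p = 0.211).

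Spred proteins bind neurofibromin, the RAS GTPase activator encoded by Nf1, and bring it to the membrane. Spred2 rose in both populations by its brightest probe, A_51_P234185. The ratios were 1.62, 1.49, 1.61 and 1.84 on the Lig+ arrays and 1.64, 1.56 and 2.04 on the Lig- arrays, with overlap. The change was 1.62 ± 0.11 in Lig+ (3.07-fold, adjusted p = 8.84e-05) and 1.73 ± 0.12 in Lig- cells (3.32-fold, adjusted p = 1.38e-04). The difference was -0.11 ± 0.15 (95% interval -0.48 to 0.25, adjusted p = 0.712).

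The other Spred2 probe, A_52_P452697, lies 1365 bases upstream and changed less. It gave 0.69, 0.91, 0.88 and 0.80 on the Lig+ arrays and 0.030, 0.48 and 0.67 on the Lig- arrays. Lig+ thus stood above Lig- on every array, as for 10.6% of probes. The change was 0.73 ± 0.078 in Lig+ (adjusted p = 6.15e-04) and 0.34 ± 0.085 in Lig- cells (adjusted p = 0.026). The Lig- call was lost in 8 of 22 settings, including without any 1 of the Lig- arrays and without Lig+ replicate 1 (0.26 to 0.49 in these 4, adjusted p from 0.0506 to 0.0912). The groups differed by 0.39 ± 0.11 (adjusted p = 0.0749). On scan day 1 alone they differed by 0.54 (adjusted p = 0.0065), in a fit that called 44% of all probes. On scan day 2 alone, with 1 Lig- array, they differed by 0.17. A random block for the slide, or for the scan day, let the difference pass (0.42 and 0.39, adjusted p = 0.0217 and 0.0405), and with slide as a fixed block it did not (0.43, adjusted p = 0.0602).

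Spred1 differed between the DN4 populations by its brightest probe, A_51_P119857. The ratios were 0.35, 0.18, 0.14 and 0.53 on the Lig+ arrays and 0.97, 0.79 and 1.22 on the Lig- arrays. Every Lig+ array was below every Lig- array, as for 12.4% of probes. The rise over DN3 was 0.997 ± 0.12 in Lig- cells (2-fold, adjusted p = 0.00119), and in Lig+ cells the value of 0.30 ± 0.11 did not pass (adjusted p = 0.0667), though it passed in 4 of 23 other settings. The difference was -0.69 ± 0.15 (1.62-fold lower in Lig+, adjusted p = 0.0355), and the brightest was the 1 tested Spred1 probe of 3 for which the difference passed.

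The Spred1 difference was -0.62, -0.61 and -1.08 within slides 1, 2 and 3. With slide as a fixed block it was -0.77 (adjusted p = 0.02). On scan day 1 alone it was -0.62 (adjusted p = 0.00152), in a fit that called 44% of all probes. On scan day 2 alone, with 1 Lig- array, it was -0.89. The call was lost in 8 of 23 settings with values of -0.81 to -0.55, namely without Lig+ replicate 1, 2 or 3, without any 1 of the Lig- arrays (adjusted p from 0.0515 to 0.143 over these 6), with Agilent's processed signals (0.0648) and with the deposited ratios (0.07).

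The difference was not called for the upstream Spred1 probe A_52_P637689. It gave 0.24, 0.39, 0.87 and 1.03 on the Lig+ arrays and 0.65, 0.77 and 0.68 on the Lig- arrays. The Lig+ arrays of scan day 1 lay below the Lig- arrays and those of scan day 2 above them. The difference was -0.093 ± 0.18 (95% interval -0.53 to 0.35, adjusted p = 0.811). On scan day 1 alone, in a fit that called 44% of all probes, it was -0.40 (adjusted p = 0.00504), in the direction of the brightest probe. Over DN3 this probe rose in both, with 0.56 ± 0.13 for Lig+ (adjusted p = 0.0161) and 0.65 ± 0.14 for Lig- (adjusted p = 0.0149). Those calls were lost without Lig+ replicate 1 or 3 (0.0677 and 0.0534) and with the Lig+ arrays alone (0.0838) in Lig+ cells, and without Lig- replicate 1 or 2 (0.26 and 0.0556) in Lig- cells.

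**Figure D3:**
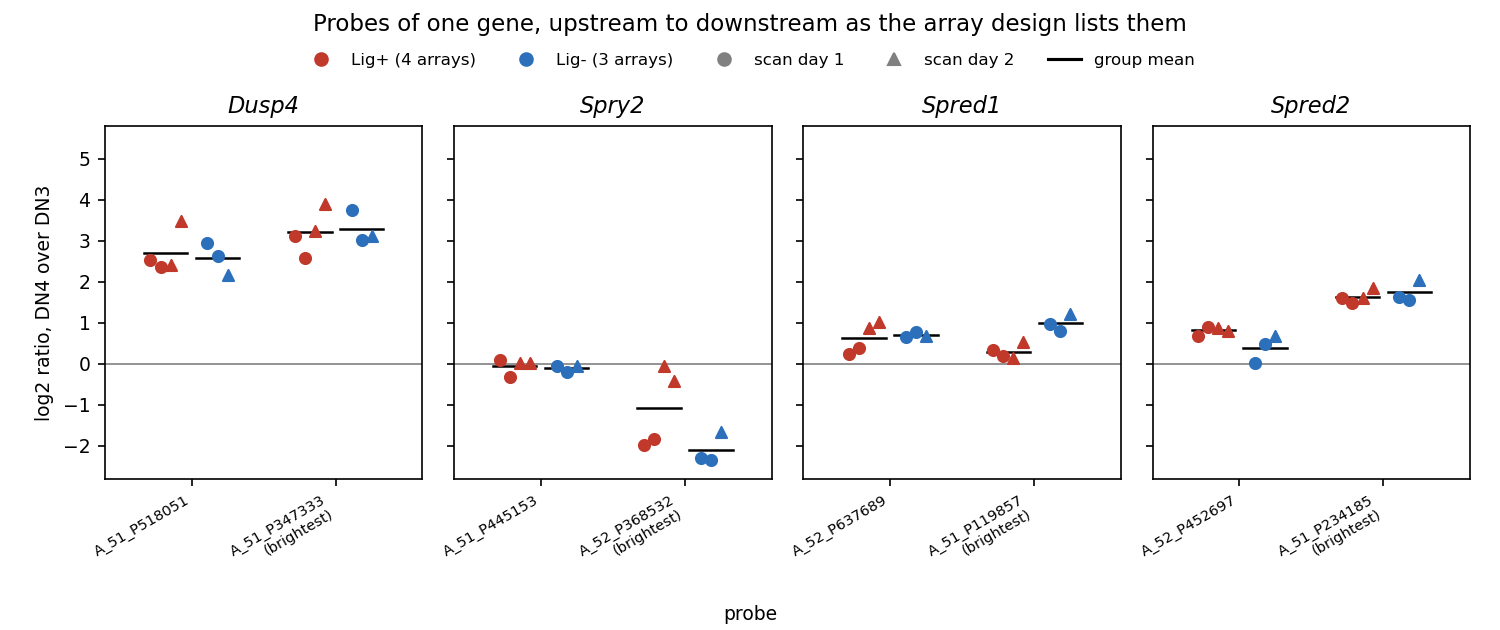
Log2 ratio of DN4 over DN3 for the probes shown of the 4 tested genes with several probes, ordered upstream to downstream within a gene (symbols as in the plot of the brightest probes). Both Dusp4 probes lie above 2 on all arrays, whereas the upstream Spry2 probe lies near 0 and the downstream one below 0.

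In all, 4 members kept their call in both DN4 populations in each of 23 other settings by the brightest probe: Dusp4, Dusp6, Dusp10 and Spred2 rose. Spry1 did likewise in the other direction. No member probe had a dye term past the threshold (smallest adjusted p = 0.281).

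The wider pathway was described with 5 lists, each gene by its brightest probe, beside the same shares of all probes. In the RAS to ERK cascade, 12 of 23 measured genes rose and 2 fell in Lig+ cells (median 0.227), and 14 rose and 1 fell in Lig- cells (median 0.323). Rasgrp1, which loads RAS with GTP below the T cell receptor, rose by 2.52 ± 0.16 and 3.56 ± 0.17, with a difference of -1.04 ± 0.22 (adjusted p = 0.034) that was lost in 6 of 23 settings. Rps6ka1, a kinase that ERK activates, rose by 1.83 ± 0.069 and 1.53 ± 0.075. Rras2 fell in both (-1.24 ± 0.14 and -1.88 ± 0.16). Rras was higher in Lig+ than in Lig- cells by 0.89 ± 0.10 (adjusted p = 0.0043), and the adaptor Grb2 lower by 0.64 (-0.64 ± 0.11, adjusted p = 0.015, lost in 3 of 23 settings). These 3 were the called differences of the cascade, 1 higher and 2 lower.

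Among RAS GTPase activators and other ERK inhibitors, 7 of 18 measured genes rose and 3 fell in Lig+ cells (median 0.00798), and 7 rose and 1 fell in Lig- cells (median 0.171). Activators of RAS GTPase moved apart: Rasa3 rose by 3.08 ± 0.21 and 2.55 ± 0.23 and Rasa2 by 2.68 ± 0.059 and 2.52 ± 0.064, while Rasa4 fell (-2.86 ± 0.27 and -2.28 ± 0.29, the latter lost in 1 of 23 settings). Dok2, an adaptor that recruits such activators, rose by 2.89 ± 0.13 and 3.44 ± 0.14. Pebp1, which binds RAF and blocks it, was lower in Lig+ than in Lig- cells (-1.37 ± 0.13, adjusted p = 0.00249). Pea15a, which holds ERK in the cytoplasm, was higher (0.77 ± 0.17, adjusted p = 0.0366), as was Dok1 (0.51 ± 0.085, adjusted p = 0.0164). The Pea15a and Dok1 calls were lost in 8 and 7 of 23 settings.

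Of 7 measured other dual specificity phosphatases, 3 rose and 1 fell in Lig+ cells (median -0.0166) and 3 rose and 0 fell in Lig- cells (median -0.0868). Dusp22 rose by 1.69 ± 0.11 and 0.89 ± 0.12, and Dusp1, an early gene itself, by 1.22 ± 0.21 and 0.87 ± 0.23, calls that were lost in 1 and 9 of 23 settings. Dusp7, a cytoplasmic ERK phosphatase of the Dusp6 group, rose by 0.68 ± 0.14 (lost in 1 of 23 settings, without Lig+ replicate 1) and 1.58 ± 0.15 and was lower in Lig+ by the test of the difference (-0.90 ± 0.20, adjusted p = 0.0358, lost in 5 of 23 settings). Dusp22 was higher in Lig+ (0.80 ± 0.15, adjusted p = 0.024, lost in 7 of 23 settings). Dusp16 fell in Lig+ cells (-0.87 ± 0.22, adjusted p = 0.023, lost in 5 of 23 settings).

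Of the ERK-induced early genes, 12 of 15 rose and 0 fell in Lig+ cells (median 2.7), 9 rose and 1 fell in Lig- cells (median 1.08), and 6 of 15 were higher and 0 lower in Lig+ by the test of the difference (median 1.09, against -0.0847 over the 8 feedback genes and 0.0027 over all probes). Egr3 differed most, by 5.89 ± 0.21, followed by Egr2 (4.70 ± 0.20) and Egr1 (2.48 ± 0.34, lost in 2 of 23 settings). The size of the Egr3 change is rough, since its probe was above background in 6 of 7 DN4 and 3 of 7 DN3 samples. Over 22 other settings its difference ran from 5.59 to 6.77. Ier3, an early gene that acts on cell survival, fell in Lig- cells (-2.21 ± 0.19), had -0.28 ± 0.17 in Lig+ cells (adjusted p = 0.254) and differed by 1.92 ± 0.24. Etv5, an ETS factor that ERK signals induce, rose in both (4.88 ± 0.30 and 5.66 ± 0.33), as did Id3, an inhibitor of E proteins (4.11 ± 0.25 and 3.80 ± 0.27). The difference was not called for either (-0.78 ± 0.43 and 0.31 ± 0.35). For Etv5 this holds for the ratios only, since the normalised log2 signals stood apart in both channels. They were 12.47 to 13.99 in Lig+ and 16 to 16.45 in Lig- samples. In the DN3 samples beside them they were 7.606 to 9.948 and 9.805 to 11.77, and the cause was not tested.

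**Figure D4:**
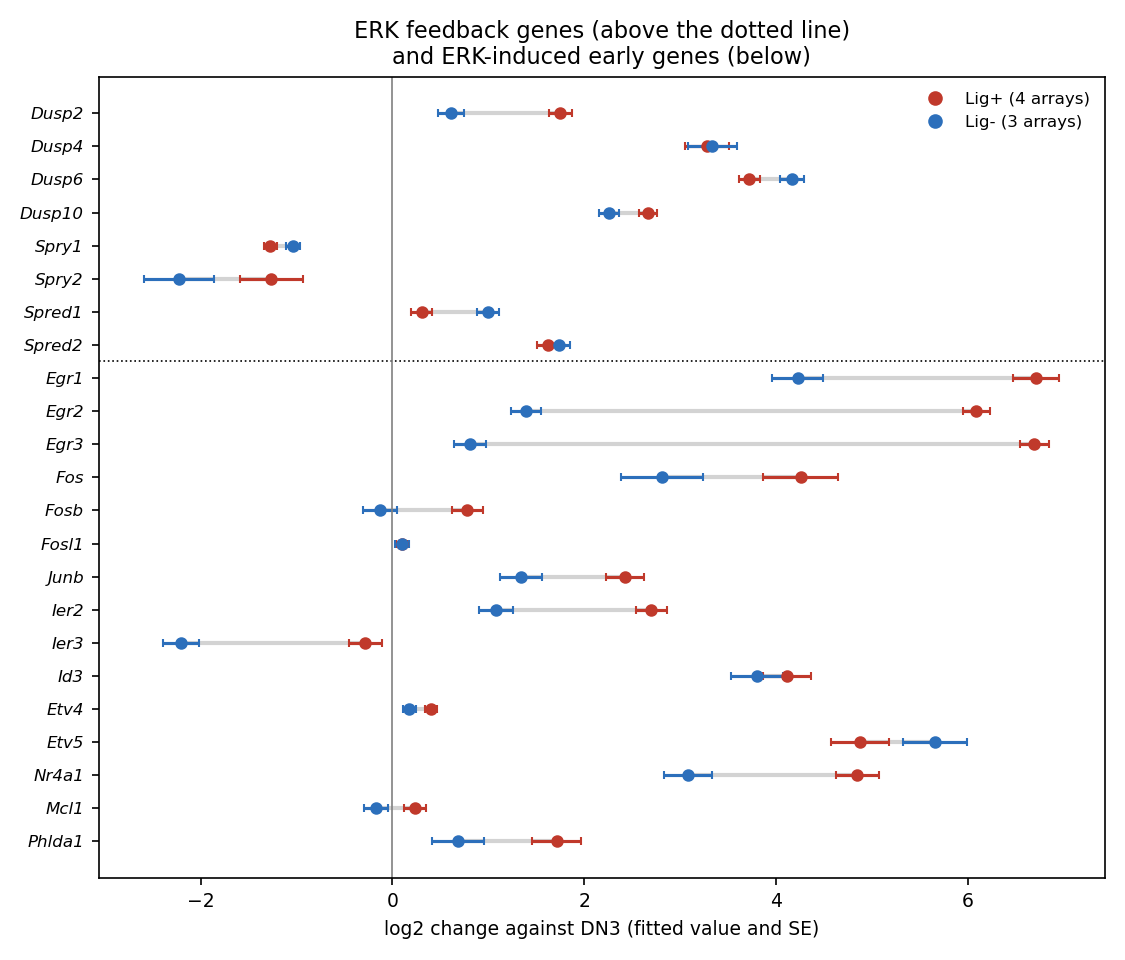
Fitted log2 change against DN3 with its SE (x axis) in Lig+ (red, 4 arrays) and Lig- cells (blue, 3 arrays) for the 8 tested feedback genes and 15 ERK-induced early genes, brightest probes. The pairs of points, which are ratios to DN3, lie close for Dusp4, Dusp6, Id3 and Etv5 and far apart for Egr2 and Egr3.

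The list of the p38 and JNK cascade holds the kinases that Dusp10 prefers and genes that act upstream of them. In it 6 of 16 genes rose and 2 fell in Lig+ cells (median 0.326), and 8 rose and 2 fell in Lig- cells (median 0.481). Mapk11, the β form of p38, rose by 3.096 ± 0.18 and 1.49 ± 0.19 and was higher in Lig+ by 1.60 ± 0.25 (adjusted p = 0.0127, lost in 3 of 23 settings). Gadd45g, which activates an upstream kinase of p38 and JNK, rose by 2.23 ± 0.13 in Lig+ cells, had 0.44 ± 0.14 in Lig- cells (adjusted p = 0.0567) and differed by 1.79 ± 0.18 (adjusted p = 0.00304). Its relative Gadd45a rose by 1.60 ± 0.12 and 1.56 ± 0.13. Map2k6, a kinase that activates p38, was lower in Lig+ than in Lig- cells (-0.90 ± 0.091, adjusted p = 0.00303).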

How the data were processed

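Spot intensity values, deposited by the authors as scanner output, were extracted with Agilent Feature Extraction 9.5.1.1, per the submitters' processing notes, and per the file headers with 9.5.1.1 (slides 1 and 2) or 9.5.3.1 (slides 3 and 4). A table of log10 ratios deposited for the series equals the scanner files' ratios within 4.87e-08. RNA was column-purified, amplified and, per the labels' protocols, coupled to Alexa 555 or 647 dye. DN4 RNA carried Alexa 647 on replicate 1 of each group and Alexa 555 on the others. Replicate numbers only name arrays. Slides 1, 2 and 3 held the replicate of that number from each group, slide 4 only Lig+ replicate 4. Slides 1 and 2 were scanned on day 1, the others on day 2.

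With R 4.3.3 and limma 3.58.1, signals were corrected by normexp (offset 50) and loess, control spots (1639) were left out, outlier spots (0.354%) set missing and spots averaged per probe. A probe was kept if 3 or more arrays had it well above background for DN4 or DN3 RNA (34906 of 41174). Log2 ratios were fitted with terms for Lig+, Lig- and dye (4 residual and 2.35 prior degrees of freedom), with adjustment over all kept probes at 0.05. Channel signals are after Aquantile normalisation. A gene is counted by its brightest probe, and on scan day 2 alone no dye term could be fitted. Scan day 1 alone called 64.3% of all probes in Lig+ and 63.8% in Lig- cells against DN3, and 44% between the groups. The fit was tested on simulated data. A further tested Spred1 probe, which is not the brightest, is not reported here. Settings varied were the background correction, offset, signals, centring, filters, dye term, probe choice, slide, scan day and each array left out. Up to 4 genes per list and comparison were named, ranked among called genes by size of change. Members and lists were chosen with earlier results of these data known, so no count over them is independent evidence.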

Additional observations from a re-analysis of the deposited data

Results flagged for a closer look

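The upstream Dusp4 probe, A_51_P518051, stood at 3.48 on Lig+ replicate 4, while the remaining Lig+ arrays gave 2.37 to 2.53. The gap to the nearest array exceeded Dixon's 95% critical value for 4 samples, which chance exceeds in about 1 of 20 groups. The brightest Dusp4 probe was also highest on that array among the Lig+ arrays, at 3.91. The tested differences between the changes of Lig+ and Lig- cells were 1.14 for Dusp2, and -0.693 for the Spred1 probe A_51_P119857, while the upstream probe A_52_P637689 did not pass.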

How the results depend on the processing

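Against DN3 the count of members past the threshold stayed between 6 and 8 in Lig+ and between 7 and 8 in Lig- cells over 23 settings. The count for Lig+ against Lig- (2) was 1 with Agilent's processed signals and 1 with the deposited ratios, 5 with scan day 1 and 4 with scan day 2 only, and 0 to 2 when each array was left out. Slide as a fixed block, which pairs the Lig+ and Lig- arrays of a slide, left it at 2. The upstream Dusp4 probe turned from 0.14 to -0.33 (adjusted p = 0.0153) on scan day 1 alone, and the cause was not tested. Of 882 values of member probes under other settings, 824 kept direction and side of the threshold, 35 lost and 22 gained a call and 1 turned. Of 1240 values of the named genes of the lists, each of which had a call to lose, 1182 kept it and 58 did not.

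The number of probes called moved most between the groups (3812), from 963 and 964 without Lig+ or Lig- replicate 1 (1416, 2162 and 2458 without Lig- 2, Lig+ 3 and Lig- 3) to 2414 with median centring, 7162 and 8303 with slide as a fixed or random block, 7721 and 6711 with scan day so, and 15354 and 6125 on scan day 1 and 2 alone. Against DN3 it moved from 12777 to 22430 on day 1 and 5617 without Lig+ replicate 1 in Lig+, and from 11081 to 22257 on day 1, 7380 with the Lig- arrays alone, 7381 with 1 probe a gene (fewer probes tested) and 3887 without Lig- replicate 1 in Lig- cells. Calls in the lists ranged, in Lig+, Lig- and their difference, over 8 to 21, 8 to 21 and 1 to 10 in the cascade, 9 to 13, 5 to 14 and 1 to 8 for RAS GTPase activators, 1 to 5, 2 to 5 and 0 to 3 for other phosphatases, 9 to 14, 8 to 13 and 3 to 13 for early genes, and 7 to 15, 5 to 15 and 2 to 12 for p38 and JNK. Signals near background leave Spry4 with rough fold values only.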
